A study of Mus musculus with 12 samples.

Results

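The 46 genes described here are type I interferon effector genes, whose products carry out or regulate the antiviral state of a cell. They were taken as a fixed list of gene symbols, and all 46 were among the 11762 genes of the deposited expression table. Expression was measured by sequencing polyadenylated RNA of J774A.1, a macrophage-like cell line from a BALB/c mouse, in 12 libraries. Cells received lipopolysaccharide together with microparticles (LPS+MP), microparticles alone (MP), lipopolysaccharide alone (LPS) or a mock treatment (control), with 3 replicates, which the submitters call biological, in each of the 4 groups. LPS is a glycolipid of the Gram-negative bacterial surface sensed by Toll-like receptor 4. All groups share 1 cell line, and the labels name no genetic change. What the microparticles were made of, their size, the doses of either agent and the exposure times are not stated in the labels. Nothing further states that they came from separate cultures, so p-values measure the spread between these libraries, which may be technical.

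Type I interferons are secreted by cells that have sensed a microbe. In macrophages, Toll-like receptor 4 reaches the interferon beta gene through the adaptors encoded by Ticam1 and Ticam2 and the transcription factor IRF3. Secreted interferon binds a receptor made of IFNAR1 and IFNAR2, and transcription factors that include IRF9 then bind interferon-stimulated response elements (ISRE) in the promoters of effector genes; some effectors, such as Rsad2, Ifit1 and Isg15, can also be induced by IRF3 itself.

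Promoters were examined because the ISRE is the element through which this pathway is known to act. RefSeq promoter windows of build GRCm38.p6, from 250 bases before to 50 bases after the start site, were matched for 37 of the 46 genes. Where a gene had several, the window whose start lay nearest that of the deposited table was used. The 2 starts lay 3001 bases apart in Rnf213 and 753 in Slfn5. The ISRE core was searched as GAAA, any 2 bases (NN) and GAAA again, on both strands. It occurred in 13 of these 37 windows (35.1%) and in 1122 of all 32544 promoter windows of the same length (3.45%). Tdrd7 had a match only outside the window used, in another of its windows. An NF-kB element, searched as GGGA, any 2 bases and TTCC, on both strands, occurred in 2 of 37 (5.41%) and in 1.47% of all windows. Matches of different motifs were counted separately, so they may overlap. The 20 ISRE matches lay between -156 and 32 bases from the start site, with a median of -73.5. A match is a description of letters and not a measured binding site. The sequences below are shown for the 5 genes on which the results turn, from 200 to 51 bases before the RefSeq start site, 5′ to 3′ on the gene's own strand, with matches to the ISRE core on either strand in capitals.
Rsad2, chr12:26456503-26456652, minus strand: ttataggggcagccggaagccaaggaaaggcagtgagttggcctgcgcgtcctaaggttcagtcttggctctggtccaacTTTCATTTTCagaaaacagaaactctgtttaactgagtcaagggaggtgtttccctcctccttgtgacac
Ifit1, chr19:34640689-34640838, plus strand: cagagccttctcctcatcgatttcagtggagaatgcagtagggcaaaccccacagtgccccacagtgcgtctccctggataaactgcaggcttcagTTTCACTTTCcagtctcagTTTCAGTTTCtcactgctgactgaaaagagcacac
Isg15, chr4:156200869-156201018, minus strand: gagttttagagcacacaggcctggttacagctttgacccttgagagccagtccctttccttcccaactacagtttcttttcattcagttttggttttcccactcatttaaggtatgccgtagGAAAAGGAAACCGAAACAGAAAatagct
Oasl1, chr5:114923040-114923189, plus strand: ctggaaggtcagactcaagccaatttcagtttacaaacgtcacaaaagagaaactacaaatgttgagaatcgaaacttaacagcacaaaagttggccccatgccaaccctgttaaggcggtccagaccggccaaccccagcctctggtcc
Ifi44, chr3:151749961-151750110, minus strand: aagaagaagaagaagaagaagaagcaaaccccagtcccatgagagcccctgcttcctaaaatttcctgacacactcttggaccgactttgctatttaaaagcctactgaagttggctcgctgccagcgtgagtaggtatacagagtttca
The window of Isg15 held 3 overlapping matches, that of Ifit1 2 separate ones and that of Rsad2 1. The windows of Oasl1 and Ifi44 held 0 matches to these letters.

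**Figure D1:**
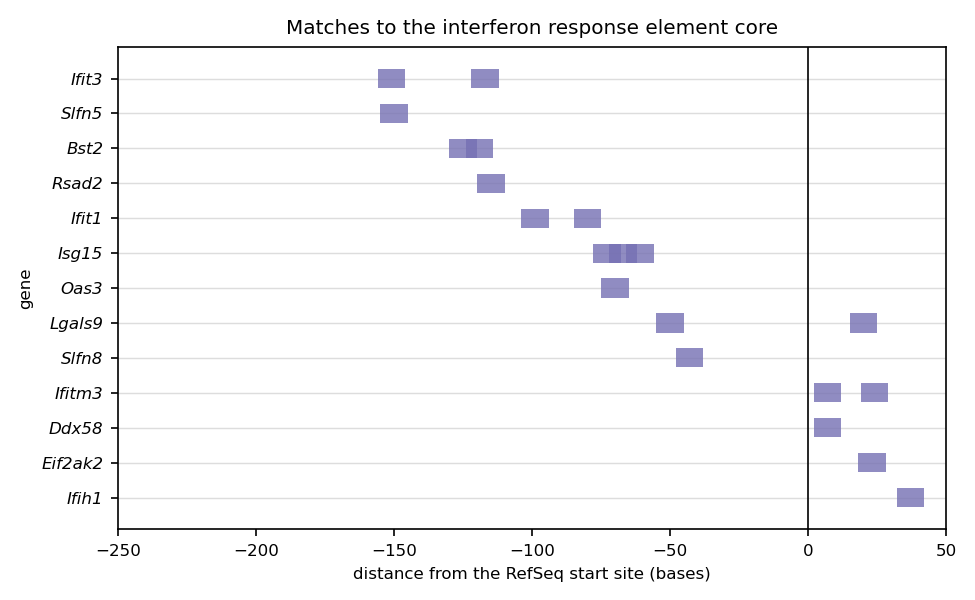
Position of each match to the ISRE core (bar, 10 bases wide) relative to the RefSeq start site (x axis, bases; the vertical line is the start) in the 13 genes with a match (rows). Of the 20 matches, 14 began between 200 bases before the start and the start, and the other 6 (in Ddx58, Ifitm3, Eif2ak2, Ifih1 and 1 of the 2 in Lgals9) lay after it.

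Values are read as CPM, a gene's share of the counted reads scaled to a common total, and changes are differences in log2(CPM + 1) with their SE, tested with limma and Benjamini-Hochberg adjustment over 11745 genes. The words rose and fell are used where the adjusted p was under 0.05 and the change over 1 on the log2(CPM + 1) scale, which understates the change of low genes; these are the thresholds of the series description. "Higher" or "lower at the adjusted p" means that only the first threshold was applied. Library totals of the deposited values ran from 998867 to 999273, and depth is unknown, so no counting interval is given. LPS replicate 2 stood apart: 339 genes differed by over 1 from the mean of the other libraries of its group, against 29 and 17 genes in LPS replicates 1 and 3 and 1 to 8 in libraries of the other groups. None of the 46 effector genes did so in any library. Of 6 macrophage markers, 5 were in the table (Cd68, Csf1r, Lyz2, Itgam and Cd14; Adgre1 was not analysed here). They summed to 4344 to 4545 CPM in LPS+MP cells, 5239 to 5589 in MP cells, 5421 to 6458 in LPS cells and 5212 to 5825 in control cells. The sum was lowest in LPS+MP cells, but the markers did not move together. In LPS+MP against control cells Lyz2 fell (-1.29) and Cd14 rose (1.49). Itgam (-0.51) and Csf1r (-0.29) were lower at the adjusted p, and Cd68 did not pass (-0.05). The part of these markers in the results below was not tested. The marker lists of T cells, B cells and epithelium, 4 genes each, were not analysed here. Of 4 fibroblast markers Pdgfra was in the table, at 6.90 to 7.97 CPM in LPS+MP cells, 1.99 to 2.35 in MP cells, 7.67 to 10.8 in LPS cells and 1.00 to 1.64 in control cells. It was thus low but higher with LPS, and its part in the results was not tested. Of 4 neutrophil markers S100a8 was in the table, at 1.22 to 4.54 CPM over all 12 libraries, and of 4 markers of plasmacytoid dendritic cells, which make much type I interferon, Tcf4 and Bst2 were, and Bst2 is itself one of the effector genes. In RNA of whole cultures, fewer cells of a type and less RNA per cell cannot be told apart.

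LPS raised nearly the whole set. With LPS alone, 44 of the 46 genes rose and 0 fell, where 8.3% of all genes tested rose and 8.05% fell. All 46 were higher at the adjusted p (26.6% of all genes) and had no overlap between LPS and control libraries (27.3% of all genes). Their median change was 2.73, against -0.08 over all genes, with a range from 0.63 to 6.69. The largest changes were those of Rsad2 (6.69 ± 0.20), Oasl1 (5.98 ± 0.10), Isg15 (5.80 ± 0.20) and Ifit1 (5.64 ± 0.20), and the smallest those of Ifitm3 (0.63 ± 0.11), Pnpt1 (0.75 ± 0.09), Adar (1.17 ± 0.08) and Tdrd7 (1.22 ± 0.09). Ifitm3 and Pnpt1 passed the adjusted p but not the size threshold (adjusted p = 0.000166 and 1.81e-06). Together the 46 genes made up 1.09% ± 0.0494 of the deposited values in LPS+MP cells, 0.271% ± 0.00342 in MP cells, 1.11% ± 0.0910 in LPS cells and 0.226% ± 0.00251 in control cells (mean ± SD, n = 3 each). Genes with an ISRE match changed by a median of 3.22 with LPS (n = 13, range 0.63 to 6.69) and those matched to a window without one by 2.37 (n = 24, range 0.75 to 5.98); the ranges overlap and no test was made.

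**Figure D2:**
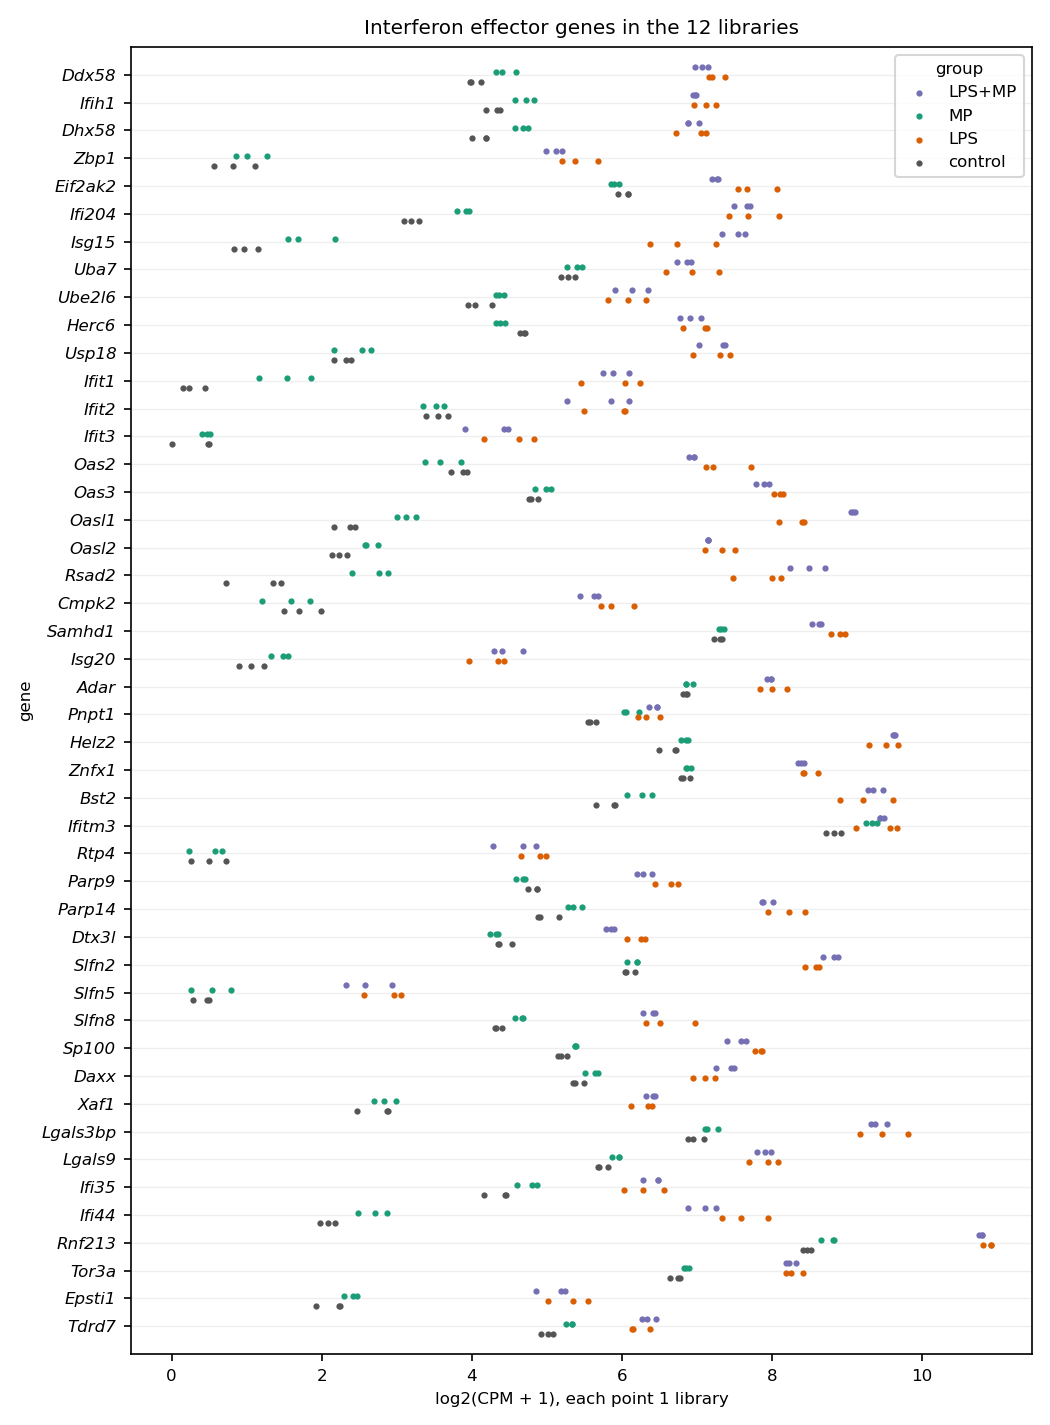
Value of each of the 46 genes (rows) in each of the 12 libraries (points, coloured by group) on the log2(CPM + 1) scale (x axis). In every row the LPS and LPS+MP points lie to the right of the control points, and in most rows the MP points lie near the control points; Rsad2 and Ifit1 are the rows where they lie farthest above.

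Cells given both agents showed the same number of rises. Against control, 44 genes rose and 0 fell in LPS+MP cells (8.52% and 12.3% of all genes). All 46 were higher at the adjusted p (27.7% of all genes) with no overlap between the groups (32.7% of all genes), and the median was 2.69 (all genes -0.10). Against MP, 44 genes rose and 0 fell in LPS+MP cells (5.71% and 7.88% of all genes), and 45 of 46 were higher at the adjusted p (19% of all genes). The median was 2.40, against -0.14 over all genes. Ifitm3 was the exception at 0.13 ± 0.11 (adjusted p = 0.346), and Pnpt1 passed only the adjusted p at 0.33 ± 0.09 (adjusted p = 0.00449). The effect of LPS in the presence of microparticles (LPS+MP minus MP) and in their absence (LPS minus control) rests on separate libraries. Across the 46 genes, which are not independent replicates, these effects ranked alike, with a Spearman correlation of 0.98, against 0.76 over all genes. Other scalings moved the median of all genes in these comparisons by over 0.1: it was 0.01 after quantile normalization and 0.00 after median-ratio scaling for LPS+MP minus control, and -0.02 and 0.00 for LPS+MP minus MP.

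**Figure D3:**
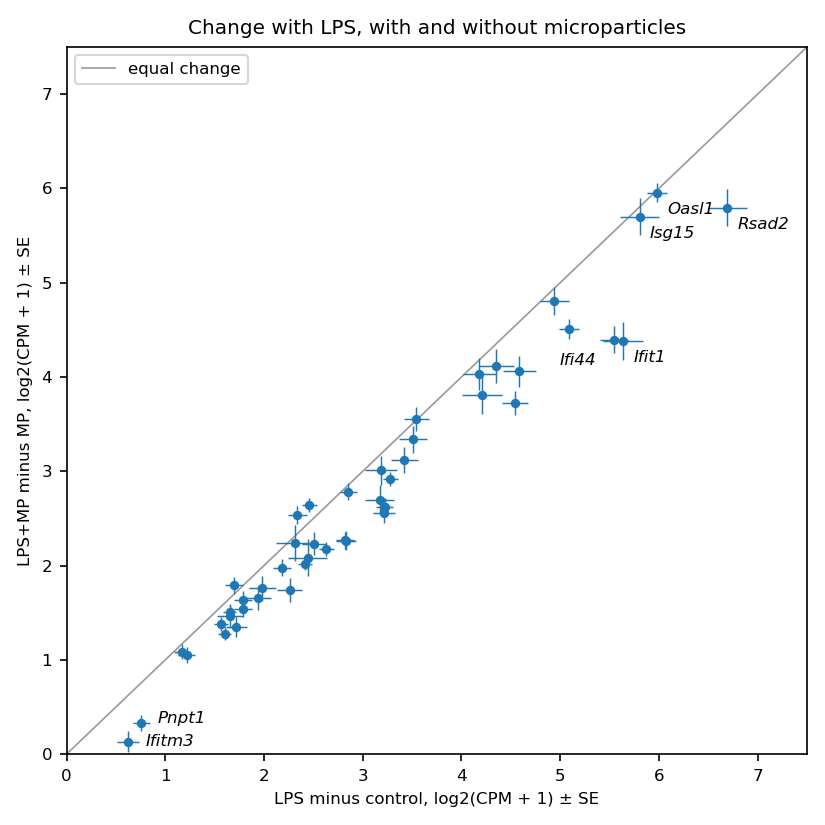
Change with LPS in the presence of microparticles (y axis, LPS+MP minus MP) against the change with LPS in their absence (x axis, LPS minus control), both on the log2(CPM + 1) scale, for the 46 genes (points, bars ± SE; the line marks equal change). The order of the genes is alike on both axes, and 42 of 46 points lie below the line, Ifit1 and Ifi44 among the farthest.

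Microparticles alone raised 2 of the 46 genes, Rsad2 and Ifit1, and 0 fell; 1.82% of all genes rose and 1.85% fell. At the adjusted p alone 17 genes were higher (20.6% of all genes) and 1 was lower (18.3% of all genes), which is 37% and 2.17% of the 46. At an unadjusted p under 0.05, 23 were higher and 1 lower, but the share of all genes at that threshold was not computed. Without LPS replicate 2, which is in neither group but enters the shared estimate of the spread, 25 were higher (27.8% of all genes) and 1 lower (25.2% of all genes). The 8 genes gained were Ube2l6, Isg20, Helz2, Slfn8, Sp100, Daxx, Lgals3bp and Lgals9. In sign, 39 were higher and 7 lower, with a median of 0.20 (all genes 0.02) and a range from -0.30 to 1.51. MP and control libraries did not overlap in 27 genes that were higher (30.9% of all genes) and 3 that were lower (28.1% of all genes).

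Rsad2 and Ifit1 carried the largest changes with microparticles. Rsad2 (chromosome 12, 26442753 to 26456452, minus strand, in the coordinates of the deposited table) encodes viperin, an enzyme that makes an antiviral nucleotide. It had 417, 359 and 301 CPM in LPS+MP cells, 5.79, 6.41 and 4.29 in MP cells, 256, 276 and 178 in LPS cells and 0.660, 1.74 and 1.54 in control cells. Every MP library lay above every control library and far below every LPS library. The change was 1.51 ± 0.20 with MP against control (adjusted p = 3.01e-05). Ifit1 (chromosome 19, 34640871 to 34650009, plus strand) encodes a protein that binds foreign RNA ends, and its reads may be shared with the related Ifit genes beside it. It had 67.1, 58.0 and 52.6 CPM in LPS+MP cells, 1.91, 2.63 and 1.24 in MP cells, 75.0, 65.0 and 42.7 in LPS cells and 0.114, 0.362 and 0.170 in control cells. Its change with MP was 1.24 ± 0.20 (adjusted p = 0.000195). Because its control values lie below 1 CPM, that change depends on the pseudocount and was 2.70 with a pseudocount of 0.1. All 3 Ifit genes rose with LPS, Ifit2 by 2.31 ± 0.19 and Ifit3 by 4.21 ± 0.20, but with MP alone Ifit2 and Ifit3 did not pass: Ifit2 stood at -0.04 ± 0.19 (adjusted p = 0.885) and Ifit3 at 0.13 ± 0.20 (adjusted p = 0.633).

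**Figure D4:**
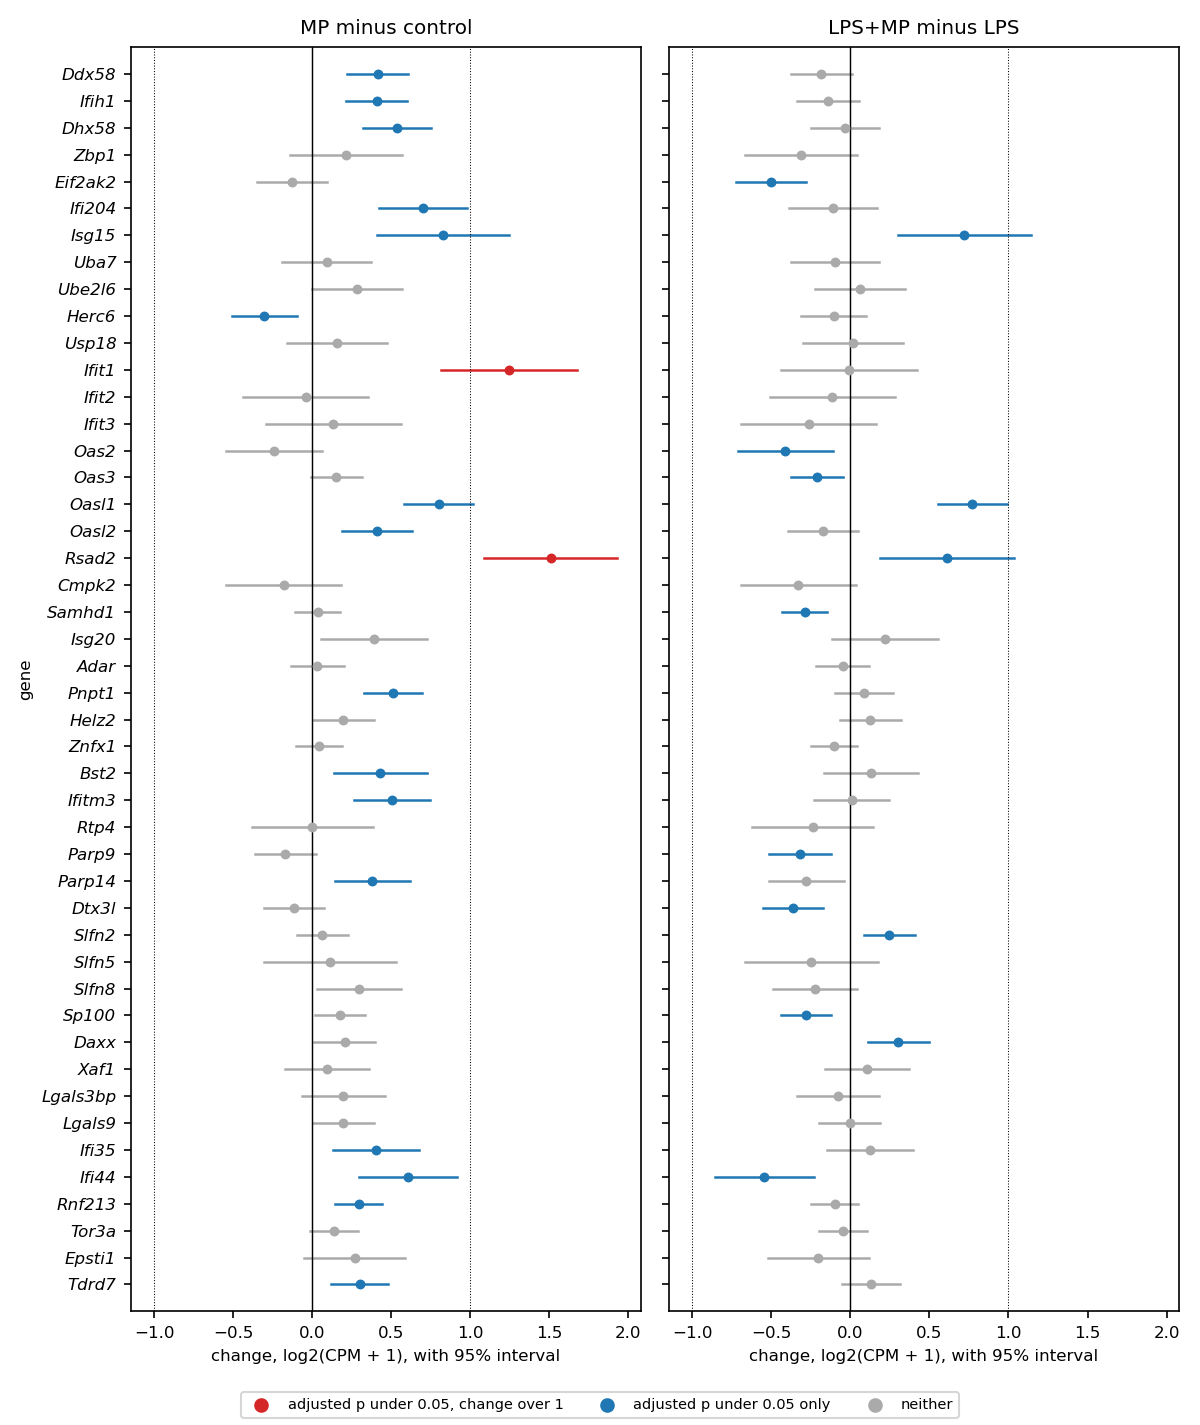
Change with microparticles for each of the 46 genes (rows) without LPS (left, MP minus control) and with LPS (right, LPS+MP minus LPS) on the log2(CPM + 1) scale, with 95% intervals; dotted lines mark a change of 1 in either direction. Rsad2 and Ifit1 pass both thresholds on the left and no gene does on the right, where Oasl1, Isg15 and Rsad2 lie highest and Ifi44 and Eif2ak2 lowest.

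Among the 6 sensors of nucleic acids, all rose with LPS, from 1.72 for Eif2ak2, the RNA-activated kinase PKR, to 4.59 for Zbp1, a sensor of Z-form nucleic acid. With MP alone 0 passed the size threshold. The RNA sensor genes Ddx58 (RIG-I, 0.41 ± 0.09), Ifih1 (MDA5, 0.41 ± 0.09) and Dhx58 (LGP2, 0.54 ± 0.10) were higher at the adjusted p, as was Ifi204. Ifi204, a gene of a cytosolic DNA sensor in mice with several close relatives that may share its reads, had 14.6, 13.0 and 14.2 CPM in MP cells, against 8.83, 7.57 and 8.12 in control cells. These libraries did not overlap, and the change was 0.70 ± 0.13 (adjusted p = 0.00061). With LPS present, Eif2ak2 was the sensor gene that was lower at the adjusted p when microparticles were added. It had 155, 154 and 146 CPM in LPS+MP cells, against 202, 267 and 185 in LPS cells, without overlap and with the widest spread in LPS cells. The change was -0.50 ± 0.10 (adjusted p = 0.00158), and without LPS it was -0.13 ± 0.10 (adjusted p = 0.345). Leaving out LPS replicate 2 gave -0.35 for Eif2ak2 with LPS present. In that fit Ddx58 (-0.23, limma adjusted p = 0.0482) and Zbp1 (-0.42, adjusted p = 0.0454) were lower at the adjusted p too.

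The ISG15 system attaches the small protein ISG15 to other proteins. All 5 of its genes here rose with LPS, from 1.65 for the activating enzyme gene Uba7 to 5.80 for Isg15 (chromosome 4, 156199424 to 156200818, minus strand). Isg15 had 199, 185 and 160.0 CPM in LPS+MP cells, 2.20, 3.54 and 1.94 in MP cells, 151, 82.0 and 105 in LPS cells and 0.781, 1.22 and 0.945 in control cells. It was higher at the adjusted p with microparticles both in the absence of LPS (0.82 ± 0.20, adjusted p = 0.00385) and in its presence (0.72 ± 0.20, adjusted p = 0.0103), with no overlap in either comparison. With a pseudocount of 0.1 the first of these was 1.27 and passed the size threshold. Without LPS replicate 2, which held the lowest Isg15 value of its group, the second was 0.52 (limma, adjusted p = 0.0181). The ligase gene Herc6 was the one effector gene lower at the adjusted p with MP alone. It had 20.7, 19.8 and 19.1 CPM in MP cells, against 25.0, 24.1 and 25.2 in control cells, a change of -0.30 ± 0.10 (adjusted p = 0.0211), and it missed the adjusted p when control replicate 1, control replicate 3, MP replicate 2 or MP replicate 3 was left out. The conjugating enzyme gene Ube2l6 (0.28 ± 0.13) and Usp18, which encodes the protease that removes ISG15 (0.15 ± 0.15), did not pass with MP alone.

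The OAS family responds to double-stranded RNA. All 4 members here rose with LPS, from 3.28 for Oas3 to 5.98 for Oasl1. Oasl1 (chromosome 5, 114923240 to 114937915, plus strand), known in mice to restrain translation of Irf7, had 539, 553 and 530.2 CPM in LPS+MP cells, 7.06, 8.54 and 7.70 in MP cells, 344, 273 and 337 in LPS cells and 4.21, 3.47 and 4.42 in control cells. Libraries with microparticles lay above their counterparts without them in both settings, by 0.80 ± 0.10 without LPS (adjusted p = 2.25e-05) and 0.77 ± 0.10 with LPS (adjusted p = 3.3e-05). Its neighbour Oasl2 was higher at the adjusted p with MP alone (0.41 ± 0.10, adjusted p = 0.00603) and stood at -0.17 ± 0.10 with LPS present (adjusted p = 0.21). Oas2 and Oas3, which make the messenger that activates RNase L, were lower at the adjusted p in LPS+MP than in LPS cells, with changes of -0.41 ± 0.14 and -0.21 ± 0.08. Oas2 had 124, 118 and 124 CPM in LPS+MP cells, against 210.2, 148 and 138 in LPS cells. These 2 groups did not overlap, but Oas2 stood at -0.23 without LPS replicate 1 (adjusted p = 0.158) and also missed the adjusted p when any 1 of the 3 LPS+MP libraries was left out. Neither Oas2 nor Oas3 passed with MP alone.

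Of the 8 genes of nucleotide and RNA enzymes, 7 rose with LPS. Cmpk2, the mitochondrial nucleotide kinase gene next to Rsad2 in the genome, changed by 4.18 ± 0.17 with LPS but stood at -0.18 ± 0.17 with MP alone (adjusted p = 0.429). Pnpt1, whose product degrades RNA in mitochondria, had 87.6, 87.7 and 81.3 CPM in LPS+MP cells, 74.0, 65.8 and 64.3 in MP cells, 78.7, 90.4 and 73.2 in LPS cells and 49.6, 46.7 and 45.7 in control cells. It was higher at the adjusted p with MP alone by 0.51 ± 0.09 (adjusted p = 0.000264), next to 0.75 ± 0.09 with LPS alone. Adar, the gene of an RNA-editing enzyme, had 244, 253 and 252 CPM in LPS+MP cells, 114, 115 and 122 in MP cells, 294, 229 and 255 in LPS cells and 115, 116 and 112 in control cells. It stood at 0.03 ± 0.08 with MP alone (adjusted p = 0.776). Samhd1, which encodes an enzyme that degrades the building blocks of DNA, was lower at the adjusted p in LPS+MP cells. It had 401, 393 and 369 CPM in LPS+MP cells, against 504, 478 and 440.3 in LPS cells, a change of -0.29 ± 0.07 (adjusted p = 0.00379). The exonuclease gene Isg20 and the helicase genes Helz2 and Znfx1 did not pass in either microparticle comparison.

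**Figure D5:**
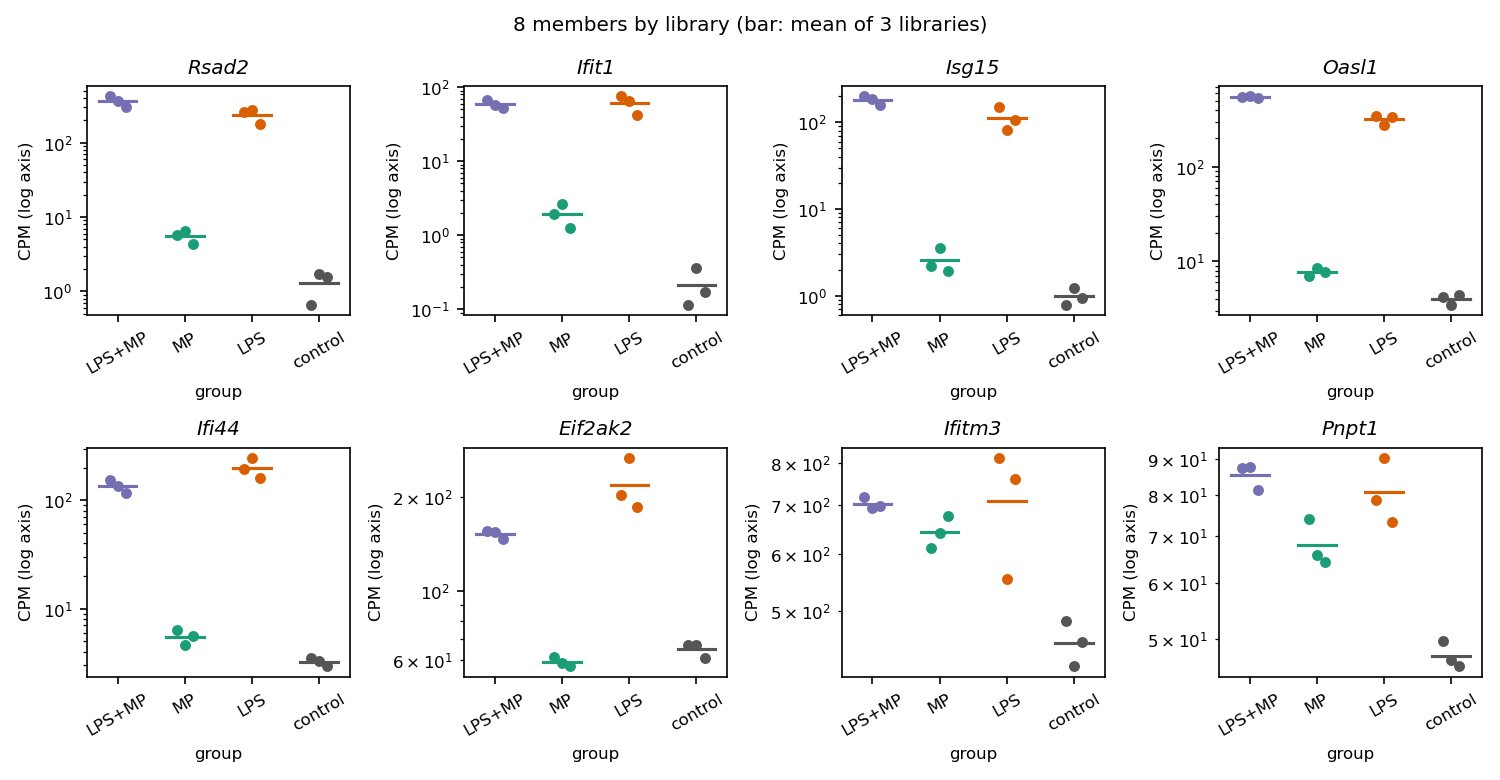
CPM (y axis, logarithmic, a separate range in each panel) of 8 effector genes in the 12 libraries (points) by group, with bars at the group mean (n = 3). In Rsad2, Ifit1, Isg15, Oasl1 and Ifi44 the LPS and LPS+MP libraries lie far above the MP libraries, which lie above the control libraries; in Ifitm3 and Pnpt1 the MP libraries lie close to those with LPS.

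Of the 3 membrane and entry factors, Bst2, which tethers viruses to the cell surface, and Rtp4 rose with LPS by 3.42 ± 0.14 and 4.35 ± 0.18. Ifitm3, whose product blocks virus entry, had 719, 692 and 697 CPM in LPS+MP cells, 610.5, 641 and 677 in MP cells, 812, 553 and 759.5 in LPS cells and 485, 420.1 and 454 in control cells. LPS replicate 2 held the lowest of its LPS values, below every MP and LPS+MP library. With MP alone Ifitm3 was higher at the adjusted p by 0.51 ± 0.11 (adjusted p = 0.00229) and Bst2 by 0.43 ± 0.14 (adjusted p = 0.0225), while Rtp4 stood at 0.00 ± 0.18 (adjusted p = 0.996). Parp9, Parp14 and Dtx3l, genes of ADP-ribosyl transferases and of the ubiquitin ligase that partners PARP9, all rose with LPS, by 1.79, 3.22 and 1.79. Parp9 and Dtx3l overlap at their starts on chromosome 16, and the strand setting of the counting is not given. In LPS+MP against LPS cells both were lower at the adjusted p, Dtx3l at -0.36 ± 0.09 (adjusted p = 0.00522) and Parp9 at -0.32 ± 0.09 (adjusted p = 0.0135). Parp14 was higher at the adjusted p with MP alone (0.38 ± 0.11, adjusted p = 0.0131).

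The remaining effector genes all rose with LPS. Among 3 Schlafen genes, regulators of RNA and growth whose close relatives may share reads, changes with LPS ran from 2.26 to 2.46. Slfn2 was higher at the adjusted p when microparticles were added to LPS (0.25 ± 0.08, adjusted p = 0.0204). Of 3 genes of nuclear bodies and apoptosis, Daxx was higher at the adjusted p in LPS+MP than in LPS cells (0.30 ± 0.09, adjusted p = 0.0178) and Sp100 lower (-0.28 ± 0.07, adjusted p = 0.00802), and Xaf1 stood at 0.11 ± 0.12 (adjusted p = 0.539). The galectin 9 gene Lgals9 and Lgals3bp, which encodes a galectin-binding protein, passed in neither microparticle comparison. Among the last 6 genes, Ifi35, Ifi44, the ubiquitin ligase gene Rnf213 and the tudor-domain gene Tdrd7 were higher at the adjusted p with MP alone, by 0.41, 0.61, 0.29 and 0.30, and Tor3a and Epsti1 did not pass. Tdrd7 had 87.0, 79.7 and 75.9 CPM in LPS+MP cells, 39.3, 39.4 and 37.2 in MP cells, 70.2, 82.2 and 69.5 in LPS cells and 29.5, 31.3 and 32.8 in control cells. Its MP libraries lay between the control libraries and those with LPS.

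Adding microparticles to LPS moved 0 of the 46 genes past both thresholds in either direction, where 0.63% of all genes rose and 3.89% fell. By limma, 5 genes were higher at the adjusted p (13% of all genes) and 8 lower (22.2% of all genes). At an unadjusted p under 0.05 these counts were 5 and 9, with the share of all genes not computed. The 5 higher were Oasl1, Isg15, Daxx, Slfn2 and Rsad2, and the 8 lower were Eif2ak2, Samhd1, Dtx3l, Sp100, Ifi44, Parp9, Oas2 and Oas3. The median was -0.10 (all genes -0.05, and 0.04 after quantile normalization) and the range -0.54 to 0.77. The median of the 46 was -0.03 without LPS replicate 1, -0.17 without LPS replicate 3 and -0.05 without LPS+MP replicate 3. Rsad2 was higher by 0.61 ± 0.20 (adjusted p = 0.0262), and its lowest LPS+MP value lay above its highest LPS value. Ifit1 stood at -0.01 ± 0.20, with a 95% interval from -0.44 to 0.42. Without LPS replicate 2, 6 genes were higher and 12 lower at the adjusted p (14.7% and 25.8% of all genes), and the 5 and 8 named above were among them. The genes gained were Tdrd7 as higher and Ddx58, Zbp1, Uba7 and Lgals3bp as lower. The number of higher genes was 3 without LPS replicate 3, 1 without LPS+MP replicate 1 and 2 without LPS+MP replicate 2, and that of lower genes was 4 without LPS+MP replicate 3.

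Whether microparticles acted differently in the presence of LPS was tested as an interaction, the change of LPS+MP from LPS minus the change of MP from control. Of the 46 genes 2 fell in this difference, Ifit1 and Ifi44, and 0 rose, where 3.68% of all genes fell and 1.02% rose. At the adjusted p 16 were lower (15.5% of all genes) and 0 higher (6.45% of all genes). At an unadjusted p under 0.05 these were 19 and 0, with the share of all genes not computed. The difference was negative in 42 of 46, with a median of -0.28 (all genes -0.08, and 0.01 after quantile normalization). Ifi44 (chromosome 3, 151730922 to 151749947, minus strand), an interferon-induced gene whose role is less well known, had 152, 137 and 117 CPM in LPS+MP cells, 6.29, 4.59 and 5.55 in MP cells, 192, 246 and 161 in LPS cells and 3.53, 3.26 and 2.93 in control cells. Microparticles went with higher values without LPS (0.61 ± 0.15, adjusted p = 0.00423) and with lower values in its presence (-0.54 ± 0.15, adjusted p = 0.00958), without overlap in either, and the difference of these was -1.15 ± 0.21 (adjusted p = 0.00102). For Ifit1 the difference was -1.25 ± 0.28 (adjusted p = 0.00539), and -2.71 with a pseudocount of 0.1. For Rsad2 it was -0.90 ± 0.28 (adjusted p = 0.0326), which passed the size threshold at -1.45 with a pseudocount of 0.1. For Oasl1 and Isg15 it did not pass (-0.03 ± 0.14 and -0.10 ± 0.28). Without LPS replicate 2 Ifi44 stood at -0.99, short of the size threshold, so that 1 gene fell, and 21 genes were lower at the adjusted p (21.8% of all genes). Leaving out LPS+MP replicate 3 gave 10 lower genes, as did median-ratio scaling.

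Of 44 other genes of the pathway, from the ligands to further induced effectors, 36 were in the table; the 5 listed interferon genes (Ifnb1, Ifna1, Ifna2, Ifna4 and Ifna5) and Oas1b, Ifit3b and Ifi209 were not analysed here. LPS raised 18 of the 36 and lowered 0 (8.3% and 8.05% of all genes; median 0.97). The receptor genes Ifnar1 and Ifnar2 changed with LPS by 0.55 ± 0.06 and 1.01 ± 0.07, and among the transcription factor genes Irf7 changed by 6.44 ± 0.12, Stat2 by 2.39 ± 0.10 and Irf9 by 1.44 ± 0.09. With MP alone 2 rose and 0 fell (1.82% and 1.85% of all genes), and 11 were higher and 5 lower at the adjusted p (20.6% and 18.3% of all genes; median 0.02). Ticam2, the gene of an adaptor of Toll-like receptor 4, had 33.4, 32.8 and 32.1 CPM in LPS+MP cells, 30.6, 29.4 and 28.8 in MP cells, 38.6, 37.7 and 32.4 in LPS cells and 8.54, 9.49 and 7.70 in control cells. Its MP libraries lay near the libraries with LPS and above the control libraries, and the change with MP was 1.68 ± 0.10 (adjusted p = 7.8e-09). Oas1g, a close copy of other Oas1 genes that may share its reads, had 212, 187 and 176 CPM in LPS+MP cells, 43.3, 44.2 and 48.4 in MP cells, 227, 154 and 172 in LPS cells and 23.0, 18.5 and 19.8 in control cells. Its change with MP was 1.12 ± 0.12 (adjusted p = 5.89e-06). Irf7 was higher at the adjusted p with MP alone (0.71 ± 0.12, adjusted p = 0.000208), as was Ifnar2 (0.64 ± 0.07, adjusted p = 3.3e-06), while the receptor gene Tlr4 was lower (-0.61 ± 0.11, adjusted p = 0.000356).

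In LPS+MP against LPS cells, 0 of the 36 pathway genes rose or fell, where 0.63% of all genes rose and 3.89% fell. At the adjusted p 4 were higher and 8 lower (median -0.05). Of all genes 13% were higher and 22.2% lower, so these shares lie near those of all genes. The higher ones were Ifnar1, Irf5, Ticam1 and Trim25. Among the lower ones were Tlr4 (-0.93 ± 0.11), the antiviral GTPase gene Mx1 (-0.83 ± 0.17) and Ptpn6, which encodes a phosphatase that restrains receptor signalling (-0.69 ± 0.06). The interaction fell in 2 of the 36 pathway genes (3.68% of all genes), Ticam2 (-1.82 ± 0.14, adjusted p = 6.07e-07) and Oas1g (-1.04 ± 0.17, adjusted p = 0.000566).

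The effector genes are set beside other LPS-responsive genes here, with no test of the difference between the lists. Of 19 inflammatory genes linked to NF-kB, such as Tnf and Il1b, 19 rose with LPS (8.3% of all genes; median 3.67) and 7 rose with MP alone (1.82% of all genes; median 0.73), next to 2 of the 46 effector genes (median 0.20). Of the others, Tnf, Il1b, Il6, Ccl4, Icam1 and Cd40 were higher at the adjusted p with MP alone (20.6% of all genes). Tnfaip3 (-0.50 ± 0.09) and Nfkbia (-0.29 ± 0.10) were lower at the adjusted p (18.3% of all genes). In LPS+MP against LPS cells 4 of these 19 rose (0.63% of all genes), and 15 were higher and 2 lower at the adjusted p (13% and 22.2% of all genes; median 0.38). The 2 lower were Il1b (-0.32 ± 0.10, adjusted p = 0.0256) and Icam1 (-0.47 ± 0.13, adjusted p = 0.012). Of 15 guanylate-binding protein and immunity-related GTPase genes, which interferons also induce, 15 rose with LPS (8.3% of all genes, median 3.33). With MP alone 1 rose and 1 fell (1.82% and 1.85% of all genes, median -0.03). At the adjusted p 1 was higher and 5 were lower with MP alone (20.6% and 18.3% of all genes). In LPS+MP against LPS cells 0 of these 15 rose or fell (0.63% and 3.89% of all genes). There 0 were higher and 4 lower at the adjusted p (13% and 22.2% of all genes, median -0.29).

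The effector genes varied together between libraries of the LPS-treated groups. In LPS+MP cells, replicate 1 lay above the mean of the other libraries of its group in 42 of 46 genes and replicate 3 below it in 43, with median deviations of 0.11 and -0.15 on the log2 scale. In LPS cells, replicate 1 lay above in 40 genes (median 0.20) and replicate 3 below in 37 (median -0.19). Over all genes the share above in these libraries was 44.7% to 55.2%. Replicates 1 and 3 thus lay on the same sides in both LPS-treated groups. Their median deviations were -0.04 and 0.04 in MP cells and 0.06 and -0.01 in control cells. Whether libraries of equal number share a source was not tested. LPS replicate 2 deviated in both directions, from -0.62 for Isg15 to 0.56 for Slfn8. Its deviations across the 46 genes had a Spearman correlation of -0.78 with the GC content of the transcripts (-0.60 over 11638 genes), and the part of GC content in the results was not tested. The median SD of an effector gene was 0.0990 in LPS+MP cells, 0.0971 in MP cells, 0.216 in LPS cells and 0.105 in control cells, against 0.0863, 0.0983, 0.191 and 0.0845 over all genes in the same order, so the wider spread in LPS cells was shared by all genes.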

How the data were processed

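RNA sequencing values of 12 libraries of J774A.1 cells were analysed, grouped and numbered as the labels give them. Per the labels' protocols, libraries were made from polyadenylated RNA with a directional kit. The submitters' processing notes name TopHat2 2.1.1, Trimmomatic 0.36, FastQC 11.5, edgeR, DESeq2 and HTSeq, without their roles. The genome build is not given in the sources used here; gene coordinates are those of the deposited table, and 21 of the 46 genes start and end as in GENCODE M21.

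The deposited columns are headed RPKM but were read as CPM, normalized by the authors: each sums to between 998867 and 999273. The deposited log2 CPM column differed from the log2 mean of the libraries with an SD of 0.200, and of 0.988 after multiplying by length (11655 transcripts matched). Whole reads were not recovered, since low values were whole multiples of 1 step only in LPS replicate 3 and MP replicate 1 (6000 steps tried, tolerance 0.05 of a step).

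Values were transformed as log2(CPM + 1) after removing 17 genes without 1 CPM in 3 or more libraries, and all 46 effector genes were kept. The means of all 4 groups were modelled together in limma 3.58.1 (R 4.3.3) with a variance trend, a procedure that was tested on simulated data. The genes, lists and tests were chosen with earlier results of these data known. Values in every library are given for genes called with microparticles or in the interaction, for the 4 largest and 4 smallest changes with LPS, and for some genes at the adjusted p alone. Sequences are from RefSeq. Over all genes tested, replicate numbers did not pair the samples, though the effector genes deviated alike by number in LPS and LPS+MP cells. Alternatives were a pseudocount of 0.1, no filter or one of 5 CPM, quantile and median-ratio scaling, a replicate block, only the groups compared, and leaving out each library; a fit without LPS replicate 2 for the comparisons that do not involve LPS-only cells was added after seeing the data.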

Additional observations from a re-analysis of the deposited data

Results flagged for a closer look

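In 2 of the 46 effector genes and 2 of the 36 pathway genes the effect of microparticles was lower in cells with LPS than without by the interaction test (limma, adjusted p under 0.05 and a difference over 1), which 3.68% of all genes also met. Ifit1 had -0.01 ± 0.20 with LPS and 1.24 ± 0.20 without, a difference of -1.25 (adjusted p = 0.00539). Ifi44 had -0.54 ± 0.15 with LPS and 0.61 ± 0.15 without, a difference of -1.15 (adjusted p = 0.00102), and was the one of these effector genes with opposite signs past the adjusted p in both settings. In the adaptor gene Ticam2 the effects were -0.14 ± 0.10 with LPS and 1.68 ± 0.10 without, a difference of -1.82 (adjusted p = 6.07e-07). In Oas1g they were 0.07 ± 0.12 with LPS and 1.12 ± 0.12 without, a difference of -1.04 (adjusted p = 0.000566).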

How the results depend on the processing

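Under the alternatives run, no median change of the effector genes changed sign. Nor did any gene that passed the adjusted p in a microparticle comparison or the interaction. Genes that did not pass could change sign. For LPS+MP against LPS without LPS replicate 2, Ifit1 went from -0.01 to 0.06, Ifi204 from -0.11 to 0.07 and Bst2 from 0.13 to -0.04. The median of all genes, set beside theirs, changed sign after quantile normalization for the interaction (0.01), LPS+MP against LPS (0.04) and LPS+MP against control (0.01), and after median-ratio scaling for MP against control (-0.01). The 44 genes risen with LPS in LPS against control, LPS+MP against control and LPS+MP against MP numbered 43 to 44 under every alternative, and the 2 risen with MP alone became 3 with a pseudocount of 0.1. For LPS+MP against LPS, fitting only the groups compared gave 3 higher and 5 lower genes at the adjusted p. For the interaction, median-ratio scaling gave 10 lower genes. Leaving out 1 library gave 0 to 1 lower genes for MP against control, 1 to 6 higher and 4 to 12 lower for LPS+MP against LPS, and 1 to 3 fallen and 10 to 21 lower for the interaction; genes higher with MP alone were 14 to 25. The causes were not tested. The interaction of Rsad2 also passed the size threshold without control replicate 2 (-1.03), LPS replicate 3, MP replicate 3 or LPS+MP replicate 1.

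Over all genes tested, the replicate numbers gave residual correlations with a median of 0.018 over 18 pairs (-0.247 to 0.158). The library most like each one bore its own number in 3 of 12 cases. With the numbers as a replicate block, 2 genes rose with MP alone and 19 were higher at the adjusted p, 5 were higher and 9 lower in LPS+MP than in LPS cells, and 2 fell in the interaction. Depth per library is unknown, which limits genes below 1 CPM most.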

Other observations

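Of 4 pairs of neighbouring effector genes, 2 had a ratio that differed between groups with and without microparticles. The pairs were picked with their values already known, and no test was made. Each ratio is the difference in log2(CPM + 1) between the genes of a pair within a library. The pseudocount of 1 understates ratios that involve genes of low CPM, such as Rsad2 and Cmpk2 in control cells. Rsad2 over Cmpk2, neighbours on chromosome 12, was 2.80 to 3.08 in LPS+MP cells, 0.81 to 1.56 in MP cells, 1.76 to 2.25 in LPS cells and -1.26 to -0.05 in control cells. Oasl1 over Oasl2 on chromosome 5 was 1.91 to 1.97 in LPS+MP cells, 0.44 to 0.52 in MP cells, 0.76 to 1.29 in LPS cells and -0.17 to 0.25 in control cells. In these pairs the ratios of groups with microparticles lay above those of their counterparts without them. Parp9 over Dtx3l on chromosome 16 was 0.39 to 0.55 in LPS+MP cells, 0.26 to 0.47 in MP cells, 0.38 to 0.44 in LPS cells and 0.33 to 0.50 in control cells, ranges that overlap. Oas3 over Oas2 on chromosome 5 was 0.83 to 1.00 in LPS+MP cells, 0.99 to 1.62 in MP cells, 0.42 to 0.98 in LPS cells and 0.91 to 1.03 in control cells, which also overlap between groups with and without microparticles.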
